A study of Mus musculus with 18 samples.

Results

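The endothelin and adrenergic receptor genes are a group of 8 genes of 2 signaling systems of the heart, read from the deposited tables by symbol: the ligands Edn1 and Edn3, the processing enzyme Ece1, the receptors Ednra and Ednrb, and the adrenergic receptors Adrb1, Adra1a and Adra1b. All 8 were among the 51435 genes of the tables. They were measured by poly(A) RNA-seq of the left ventricle (LV) in 18 mice, 9 WT and 9 WWP2Mut/Mut. The mutant mice are homozygous for a CRISPR/Cas9-made allele of Wwp2, the gene of an E3 ubiquitin ligase, in which exon 2 lacks 4 bp, on the C57BL/6J background, and the WT mice are their littermates. Both groups received angiotensin II (AngII), the pressor peptide of the renin-angiotensin system, by osmotic pump at 500 ng/kg/min for 28 days from 8 weeks of age. Untreated mice were not analysed here, so each difference below is between genotypes under AngII. The deletion is constitutive, so it is carried by every cell type of the ventricle. Per the study's methods, the frameshift is meant to remove the full-length (FL) and N-terminal (N) forms of WWP2 and leave the C-terminal form (C), and the gene-level values used here do not separate the 3 forms.

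Endothelin-1 is cut from a larger precursor by endothelin-converting enzyme and acts on the cells next to those that secrete it. Its ETA receptor, on muscle cells, couples to Gq and leads to calcium release and contraction, whereas the ETB receptor, abundant on endothelium, leads to nitric oxide release and clears the peptide. Noradrenaline from sympathetic nerves acts on the same ventricle through β1-adrenergic receptors, which couple to Gs and cAMP and raise the force and rate of contraction, and through α1-adrenergic receptors, which couple to Gq as ETA does. Each of these inputs, like AngII itself, is known to promote hypertrophy.

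The libraries held between 24566994 and 37451087 expected counts, with a median of 31168997, and each of the 4 sequencing lanes held both genotypes. Wwp2 itself was lower in every mutant mouse, with a log2 fold change of -1.40 (SE 0.157, adjusted P = 0.00113 in edgeR's quasi-likelihood test). Markers of cardiomyocytes (7 of 7), ventricular cardiomyocytes (3 of 3), endothelium (8 of 8), fibroblasts (8 of 8), mural cells (9 of 9) and macrophages (5 of 5) reached a mean of 1 TPM in both genotypes, so the tissue had the markers of its label. In contrast, only 2 of 8 markers of Schwann cells and neurons did, with Th below 0.1 TPM. This level does not single out the ventricle, since 4 of 5 atrial markers reached it in both genotypes. Of 7 liver markers, 7 reached it in WT and 5 in WWP2Mut/Mut mice. The summed TPM of the 7 cardiomyocyte markers was 21118 to 28711 in WT and 19822 to 24234 in WWP2Mut/Mut mice (two-sided exact permutation test, P = 0.0458, and 0.285 after Benjamini-Hochberg adjustment over 12 marker lists). In edgeR, 0 of these 7 markers had an unadjusted P below 0.05, and their median log2 fold change was -0.03, with 4 negative and 3 positive. Transcripts of other tissues varied between mice. The atrial gene Myl7 was at 48.7 TPM or more in 3 WT and 2 WWP2Mut/Mut mice and at 7.14 TPM or less in the others. The summed TPM of 7 liver genes ran from 5.35 to 297 in WT mice and from 4.85 to 54.4 in WWP2Mut/Mut mice (two-sided exact permutation test, P = 0.0475, with the same adjusted P). In edgeR, all 7 liver genes were lower in WWP2Mut/Mut mice at an unadjusted P below 0.05, against 2.57% of all genes. Their log2 fold changes ran from -2.68 to -1.35, with a median of -1.89, and 0 of 7 passed the adjusted test. The part of these transcripts in the results below was not tested beyond the fits without the 5 mice with atrial transcripts and with the liver sum as a covariate. In whole ventricle, fewer cells of a type and less RNA per cell cannot be told apart.

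On the TPM scale, which corrects for transcript length, Ece1 had the highest level of the 8 genes, with a median over 18 mice of 14.0 TPM (range 6.68 to 25.9). Adra1b followed at 7.44 TPM and Ednra at 4.91 TPM. Ednrb (3.09 TPM), Adrb1 (2.84 TPM) and Adra1a (1.90 TPM) lay in the middle, and the ligands Edn3 (1.40 TPM) and Edn1 (1.08 TPM) were lowest. Within mice, Ednra exceeded Ednrb in 18 of 18 mice, Ece1 exceeded Adra1b in 17, and Adra1b exceeded Ednra in 15. The neighbours Ednrb and Adrb1 were in this order in 11 of 18 mice, and so were Edn3 and Edn1, so neither order was stable from mouse to mouse.

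**Figure D1:**
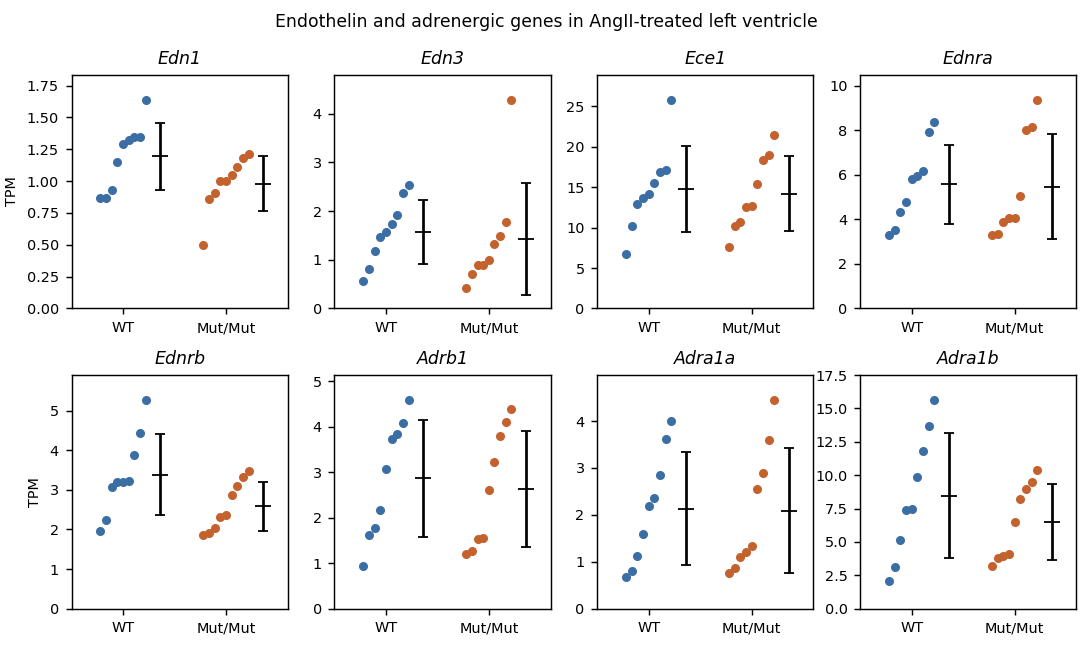
Level of each of the 8 genes (TPM, vertical axis from 0, scaled to each gene) in 9 WT (blue) and 9 WWP2Mut/Mut (orange) mice, sorted within genotype, with the mean and SD in black. The genotypes overlap for every gene, and the spread within a genotype is wide for Adra1a (0.67 to 4.45 TPM over all mice) and Adra1b (2.10 to 15.6 TPM).

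The first question was whether the WWP2Mut/Mut genotype, aimed at WWP2-FL and WWP2-N, changed these genes under AngII. No gene of the 8 passed the test in edgeR (0 of 8 at an adjusted P below 0.05, where 0.00403% of the 24804 genes tested passed). At an unadjusted P below 0.05, 1 of 8 passed, Ednrb, and 3.66% of all genes did (2.57% lower and 1.09% higher in WWP2Mut/Mut mice). The fold changes were negative in 7 of 8 genes, against 51.9% of all genes. This count is no stable direction, because the estimates of Ednra, Adrb1, Adra1a and Adra1b lay between -0.05 and -0.01 on the log2 scale and turned positive when gene body coverage was added to the fit. The deposited TPM has a shift of its own: of the 15806 genes above 0 TPM in every mouse, 86.7% had the lower mean in WWP2Mut/Mut mice, with a median log2 ratio of the means of -0.14, where the median log2 fold change of all genes was -0.01 in edgeR. All TPM differences, the marker sums above included, are to be read against that median. At an unadjusted exact permutation P below 0.05, 5.3% of these genes passed on TPM, 5.06% lower and 0.234% higher.

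Edn1 encodes endothelin-1, the main endothelin of the heart, and lies on the plus strand at chr13:42301476-42307990 (GRCm38) in 5 exons. It was measured with 52 to 128 counts per mouse. In WT mice its level ran from 0.87 to 1.64 TPM with a median of 1.29, and in WWP2Mut/Mut mice from 0.50 to 1.21 TPM with a median of 1.00. The groups overlapped, although 5 WT mice lay above all mutant mice and 2 mutant mice, 53-1 and 1-2, lay below all WT mice. The mean was 1.197 ± 0.263 TPM (SD, n = 9) in WT and 0.980 ± 0.214 TPM (SD, n = 9) in WWP2Mut/Mut mice (two-sided exact permutation test, P = 0.0738). In edgeR, with RNA concentration and lane as covariates, the log2 fold change was -0.21 (SE 0.181, 95% interval -0.59 to 0.17, adjusted P = 1). The mutant mean was the lower in lanes 1, 2 and 3 and the higher in lane 4, where it was 1.13 TPM against 0.983 TPM. With 1 mouse left out in turn, the exact P ran from 0.0338 (without WT mouse 25-3 or 39-1) to 0.147 (without mutant mouse 53-1), and it was below 0.05 in 3 of 18 cases. It was 0.147 on TPM rescaled to equal totals and 0.286 on TMM-normalized CPM (two-sided exact permutation test). Without mutant mouse 53-1, the lowest, the log2 fold change was -0.10 in edgeR.

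Edn3 encodes endothelin-3, which acts mainly through the ETB receptor and is best known for its role in enteric neurons and melanocytes. It lies on the plus strand at chr2:174760619-174784042 in 5 exons. Levels ran from 0.57 to 2.54 TPM in WT mice (median 1.58) and from 0.43 to 4.29 TPM in WWP2Mut/Mut mice (median 0.99). The highest and the lowest values were both in mutant mice, and a single mutant mouse, 62-1, stood above the other 8, which reached 1.77 TPM. The mean TPM was 1.58 ± 0.658 (SD, n = 9) in WT and 1.42 ± 1.15 (SD, n = 9) in mutant mice (two-sided exact permutation test, P = 0.771). The edgeR log2 fold change of -0.55 (SE 0.323, 95% interval -1.23 to 0.13, adjusted P = 1) was the lowest of the 8 genes and had the widest SE but for Adra1a. It depended on the covariates, at -0.07 without any and -0.21 with lane alone. It was -0.90 (SE 0.346, unadjusted P = 0.0181, adjusted P = 0.740 in edgeR) with the liver sum added. It was -0.05 with gene body coverage as the sole covariate (unadjusted P = 0.838, edgeR). With each mouse left out in turn, 2 of 18 fits had an unadjusted P below 0.05. It was -0.78 without WT mouse 45-1, with an unadjusted P of 0.0132 in edgeR, and also -0.78 without mutant mouse 53-1, with an unadjusted P of 0.0394. The other end was -0.38 without mutant mouse 52-1, with an unadjusted P of 0.253 in edgeR.

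Ece1 encodes the metalloprotease that releases active endothelins from their precursors. It spans chr4:137862237-137965229 on the plus strand and has 20 exons in its longest coding transcript, the most of the 8 genes. Its level ran from 6.68 to 25.9 TPM in WT mice (median 14.2) and from 7.56 to 21.5 TPM in WWP2Mut/Mut mice (median 12.7). The mutant range lay inside the WT range. The means were 14.8 ± 5.31 and 14.2 ± 4.64 TPM (SD, n = 9 each; two-sided exact permutation test, P = 0.820). The log2 fold change was 0.13 (SE 0.168, 95% interval -0.23 to 0.48, adjusted P = 1, edgeR). It was -0.14 in limma on log2(TPM + 1), where the median of the 11336 genes with a mean of 1 TPM or more was also -0.14.

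Ednra encodes the ETA receptor and lies on the minus strand at chr8:77663031-77724464 in 8 exons. Its level ran from 3.31 to 8.36 TPM in WT mice (median 5.79) and from 3.29 to 9.37 TPM in WWP2Mut/Mut mice (median 4.08). The mutant mice fell into 6 at or below 5.06 TPM and 3 at or above 7.99 TPM, while WT mice were also found between these levels. The means were 5.57 ± 1.78 and 5.47 ± 2.36 TPM (SD, n = 9 each; two-sided exact permutation test, P = 0.921). The log2 fold change was -0.01 (SE 0.202, 95% interval -0.43 to 0.42, adjusted P = 1, edgeR).

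Ednrb encodes the ETB receptor and lies on the minus strand at chr14:103814625-103844402 in 8 exons. It had the smallest unadjusted P of the 8 genes. Its level ran from 1.95 to 5.27 TPM in WT mice (median 3.21) and from 1.86 to 3.48 TPM in WWP2Mut/Mut mice (median 2.37). The 3 highest WT mice lay above all mutant mice and 2 mutant mice lay below all WT mice, with the rest overlapping. The means were 3.39 ± 1.03 and 2.59 ± 0.620 TPM (SD, n = 9 each; two-sided exact permutation test, P = 0.0646, and 0.123 on TPM rescaled to equal totals), and the mutant mean was the lower in all 4 lanes, with differences from -1.34 TPM in lane 2 to -0.255 TPM in lane 1. The log2 fold change was -0.40 (SE 0.144, 95% interval -0.70 to -0.10), with an unadjusted P of 0.0124 and an adjusted P of 1 in edgeR. Leave-one-out estimates ran from -0.45 to -0.29. Without RNA concentration in the fit it was smaller, at -0.25 with lane alone (unadjusted P = 0.0809, edgeR) and -0.24 without covariates (unadjusted P = 0.0926, edgeR). Concentration was listed at 1.68 ng/μl for WT mouse 43-3 and at 88.6 to 320.9 ng/μl for the other 17 mice. Without that mouse the estimate was -0.40 (unadjusted P = 0.0148, edgeR). With the liver sum added it was -0.28 (unadjusted P = 0.110, edgeR). Endothelial markers, 8 of 8 at 1 TPM or more, summed to 259 to 359 TPM in WT and 238 to 352 TPM in mutant mice, with a median of 321 and 299 TPM (two-sided exact permutation test, P = 0.326). In edgeR their median log2 fold change was 0.03, with 3 negative and 5 positive, and 0 of 8 had an unadjusted P below 0.05. The 3 endocardial markers all had a negative fold change (median -0.29; Npr3 -0.50, unadjusted P = 0.0250, adjusted P = 1, edgeR), and their sum had a median of 16.6 TPM in WT and 10.1 TPM in mutant mice, with overlapping groups (two-sided exact permutation test, P = 0.451). The part of either list in the Ednrb difference was not tested.

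Adrb1 encodes the β1-adrenergic receptor, the main target of β-blockers in the heart. It has a single exon in its longest coding transcript, at chr19:56722199-56733113 on the plus strand for the gene. Its level ran from 0.94 to 4.59 TPM in WT mice (median 3.08) and from 1.21 to 4.39 TPM in WWP2Mut/Mut mice (median 2.60). The mutant range lay inside the WT range. The means were 2.87 ± 1.28 and 2.63 ± 1.28 TPM (SD, n = 9 each; two-sided exact permutation test, P = 0.695), and the log2 fold change was -0.04 (SE 0.288, 95% interval -0.64 to 0.56, adjusted P = 1, edgeR).

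Adra1a and Adra1b encode the α1A- and α1B-adrenergic receptors, which are both found on cardiomyocytes and vascular smooth muscle. Adra1a lies on the plus strand at chr14:66635251-66771168 in 3 exons. It ran from 0.67 to 3.99 TPM in WT mice (median 2.19) and from 0.77 to 4.45 TPM in WWP2Mut/Mut mice (median 1.33), and the ranges nearly coincided (two-sided exact permutation test, P = 0.941). Its log2 fold change was -0.05 (SE 0.366, 95% interval -0.82 to 0.72, adjusted P = 1, edgeR). Adra1b lies on the minus strand at chr11:43774606-43901210 in 5 exons. It ran from 2.10 to 15.6 TPM in WT mice (median 7.47) and from 3.17 to 10.4 TPM in WWP2Mut/Mut mice (median 6.46). The 3 highest values were in WT mice, and so were the 2 lowest (two-sided exact permutation test, P = 0.293). Its log2 fold change was -0.05 (SE 0.232, 95% interval -0.53 to 0.44, adjusted P = 1, edgeR). The mutant minus WT difference in mean TPM was 3.02 in lane 1 and -7.63 in lane 3, so lanes gave opposite signs.

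**Figure D2:**
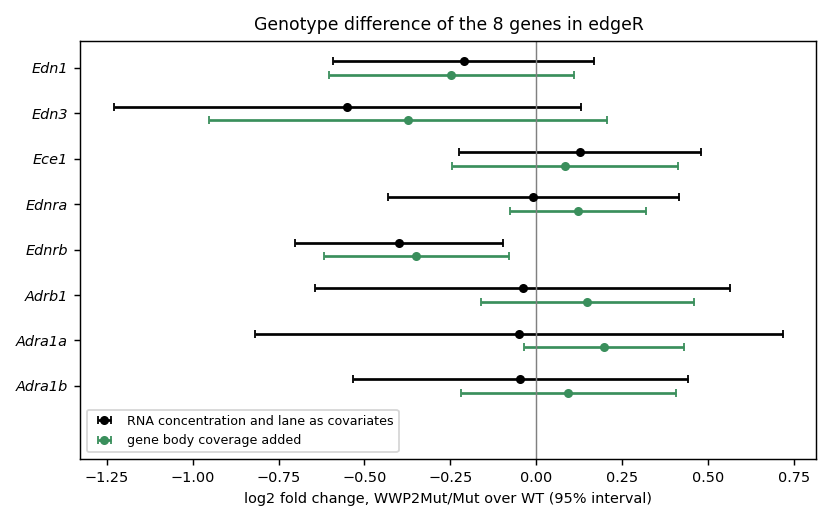
Log2 fold change of each gene in WWP2Mut/Mut over WT mice (horizontal axis) with its 95% interval from edgeR, with RNA concentration and lane as covariates (black) and with gene body coverage added (green). The Ednrb interval lies below 0 in both of these fits (-0.48 to 0.04 with coverage as the sole covariate), and the intervals of Ednra, Adrb1, Adra1a and Adra1b narrow and shift to the right when coverage is added.

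The levels of all 8 genes differed among the 18 mice of both genotypes, from a 2.83-fold range in Ednrb and a 2.85-fold range in Ednra to a 9.98-fold range in Edn3 (TPM). The levels were set against the gene body coverage value in the deposited table of samples. That value, headed genebody_bottomhalf, ran from 0.0288 to 0.0540, and its definition is not given in the sources used here. A rise in it is therefore not read as better coverage. The relation of the 8 genes to it was examined after the values had been seen. On the log2 CPM scale with the genotype means removed, Adra1a fell as coverage rose (Pearson r = -0.94, permutation P = 1e-05, the smallest that these shuffles can give; Spearman rho = -0.95, permutation P = 1e-05). Adrb1 (r = -0.84, permutation P = 6e-05; rho = -0.81, permutation P = 0.00019), Ednra (r = -0.81, permutation P = 3e-05; rho = -0.82, permutation P = 8e-05) and Adra1b (r = -0.75, permutation P = 0.00069; rho = -0.71, permutation P = 0.00228) did so as well. Edn3 had r = -0.56 (permutation P = 0.0191) and rho = -0.58 (permutation P = 0.0149). The other 3 genes did not pass on the log2 CPM scale, where r was -0.31 for Ednrb, 0.26 for Ece1 and 0.24 for Edn1.

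After Benjamini-Hochberg adjustment over all 11336 genes with a mean of 1 TPM or more, these 5 negative relations had adjusted P of 8.96e-05 for Adra1a, 0.000303 for Adrb1, 0.000184 for Ednra, 0.00204 for Adra1b and 0.0339 for Edn3 (permutation test). Relations of this kind were common, since 32.7% of those genes passed with a negative r and 27.3% with a positive r. An r of -0.8 or lower, as in Adra1a, Adrb1 and Ednra, was found in 16.6% of the genes, and an r of -0.7 or lower, which adds Adra1b, in 23.8%. Without the 2 mice farthest from the median coverage, r was -0.95 for Adra1a, -0.76 for Adrb1, -0.86 for Ednra, -0.65 for Adra1b and -0.57 for Edn3. Within each genotype r was negative for these 5 genes, though no test was run there. It ran from -0.96 (Adra1a) to -0.49 (Edn3) in WT mice and from -0.93 (Adra1a) to -0.62 (Edn3) in WWP2Mut/Mut mice. On the log2(TPM + 1) scale all 8 genes had a negative r, from -0.95 for Adra1a to -0.26 for Edn1, and so did 74.1% of the 11336 genes. On that scale Ednrb (r = -0.65, permutation P = 0.00604; rho = -0.66, permutation P = 0.00521) and Ece1 (r = -0.53, permutation P = 0.0296; rho = -0.60, permutation P = 0.0127) also had an unadjusted P below 0.05, and the sign of Ece1 was opposite to that on log2 CPM. Of all genes, 56.7% passed that threshold with a negative r and 11.2% with a positive r on this scale (permutation test).

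With coverage as a further covariate in edgeR, the SE of the Adra1a fold change fell from 0.366 to 0.111, that of Ednra from 0.202 to 0.0946 and that of Adrb1 from 0.288 to 0.148. The estimates became 0.20 for Adra1a (95% interval -0.04 to 0.43), 0.12 for Ednra (-0.08 to 0.32), 0.15 for Adrb1 (-0.16 to 0.46) and 0.09 for Adra1b (-0.22 to 0.40). Ednrb was at -0.35 in this fit (95% interval -0.62 to -0.08, unadjusted P = 0.0141, adjusted P = 0.679, edgeR). With coverage as the sole covariate it was -0.22 (95% interval -0.48 to 0.04, unadjusted P = 0.0960, edgeR). No gene of the 8 passed the adjusted test here either, and 1 gene of 24804 did, Wwp2.

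**Figure D3:**
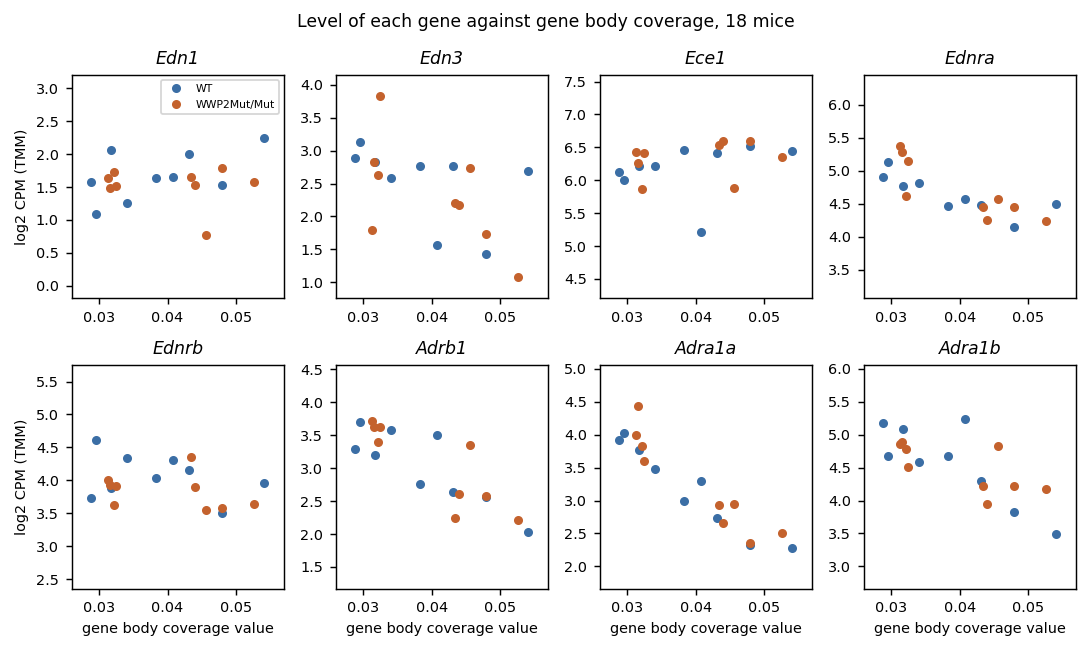
Level of each gene (log2 CPM after TMM normalization, vertical axis of equal length in all panels) against the gene body coverage value (horizontal axis, no unit) in 9 WT (blue) and 9 WWP2Mut/Mut (orange) mice. Adra1a, Adrb1, Ednra and Adra1b decline from left to right in both genotypes, whereas the slopes of Edn1, Ece1 and Ednrb did not pass on this scale (Ednrb and Ece1 had an r of -0.65 and -0.53 on log2(TPM + 1)).

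The second question was which of the 8 genes varied together from mouse to mouse within genotype. Of the 28 pairs, 7 passed (permutation test with Benjamini-Hochberg adjustment over the 28 pairs), and 6 of these 7 were the pairs that can be formed among Ednra, Adrb1, Adra1a and Adra1b. Their r ran from 0.58 (Ednra with Adra1b) to 0.87 (Ednra with Adra1a), with permutation P from 2e-05 to 0.00665 and adjusted P from 0.00056 to 0.0266. Their Spearman rho ran from 0.67 to 0.88 (permutation P from 2e-05 to 0.0033). By Spearman rho 10 of 28 pairs passed (permutation test), and the 3 further pairs joined Edn3 and Ece1 to these receptors: Edn3 with Ednra, Edn3 with Adra1a (rho = 0.61) and Ece1 with Adra1a (rho = -0.61), each with an adjusted permutation P of 0.0309. Among all pairs of the 11336 genes, 13.8% had an r of 0.58 or more and 8.56% an r of -0.66 or less. Pairs like the 7 that passed were therefore common. The share of all gene pairs by rho was not computed, so the 10 of 28 has no share to be read against. The r of the 6 pairs among the 4 receptors was 0.54 to 0.84 without the 2 mice farthest from the median, 0.56 to 0.90 within WT mice and 0.74 to 0.87 within WWP2Mut/Mut mice.

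The remaining pair was negative. On log2 CPM, Ece1, the processing enzyme, and Adra1b had a negative correlation (r = -0.66, permutation P = 0.00521, adjusted P = 0.0243; rho = -0.67, permutation P = 0.00431), and 8.56% of all gene pairs had an r as low. This sign held on the log2 CPM scale and turned on log2(TPM + 1), where r was 0.21 (permutation P = 0.433; rho = 0.27, permutation P = 0.296). By TPM, WT mouse 43-3 had the highest level of both genes (25.9 TPM of Ece1 and 15.6 TPM of Adra1b). Without WT mouse 45-1, which had the lowest Ece1 level, r was -0.63 on log2 CPM. Within the endothelin system, r was -0.19 for Edn1 with Ednra, -0.15 for Edn1 with Ednrb and 0.40 for Ednra with Ednrb, and none of these passed (permutation P of 0.464, 0.576 and 0.0962). The pair of ligand and receptor with the highest r was Edn3 with Ednra (r = 0.55, permutation P = 0.0292, adjusted P = 0.0910; rho = 0.62, permutation P = 0.011, adjusted P = 0.0309), which passed by rank only. Ece1 with Ednra had r = -0.19 (permutation P = 0.419) and rho = -0.54 (permutation P = 0.0230, adjusted P = 0.0536).

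When gene body coverage was removed along with genotype, 0 of 28 pairs passed by either coefficient (permutation test), although 5 had an unadjusted P below 0.05. The r of the 6 receptor pairs was then -0.08 to 0.54 (adjusted permutation P from 0.191 to 0.979), and that of Ece1 with Adra1b was -0.73 (adjusted permutation P = 0.101). When lane and RNA concentration were removed instead, 7 pairs passed. Without WT mouse 94-2, 5 pairs passed, all with a positive r. On the log2(TPM + 1) scale 14 pairs passed, all with a positive r of 0.51 or more, a level that 33.6% of all gene pairs reached, and 66.2% of all pairs had a positive r. Without the 5 mice with atrial transcripts 14 pairs passed, 10 of them with an r of 0.65 or more and 4 with an r of -0.65 or less. Of all gene pairs, 12.5% and 11.5% were as high and as low. The number of pairs that passed therefore moved with the scale, the coverage value and these mice.

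**Figure D4:**
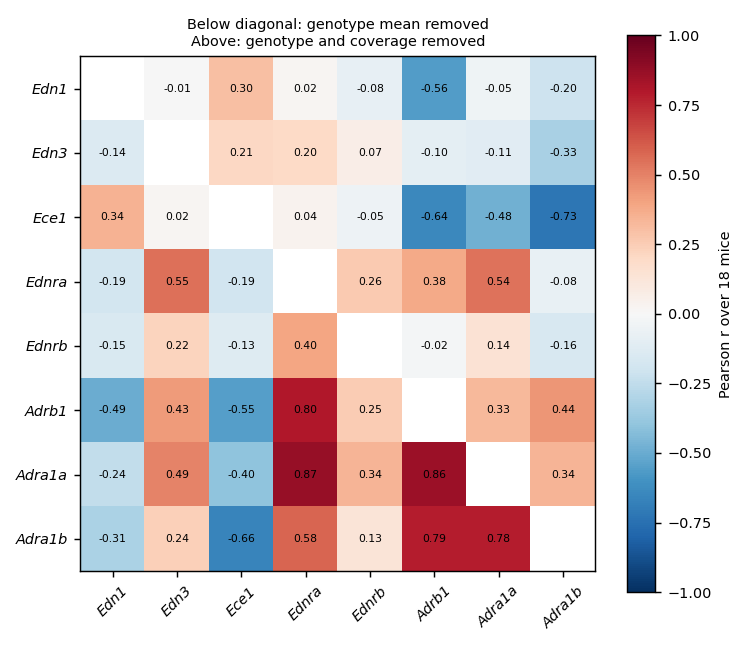
Pearson r between the 8 genes over 18 mice (color scale from -1 to 1), below the diagonal with the genotype mean removed and above it with gene body coverage removed as well. The block of Ednra, Adrb1, Adra1a and Adra1b has r of 0.58 to 0.87 below the diagonal and -0.08 to 0.54 above it.

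The DNA upstream of 3 of these 4 receptor genes is shown because their transcripts varied together before gene body coverage was removed. Whether they share regulation was not tested. RefSeq's promoter table (GRCm38.p6) had entries for 7 of the 8 genes. The 250 bases before the RefSeq start are given on the gene's own strand, with matches to 6 motifs in capitals, for Ednra (chr8:77724453-77724702, minus strand), Adrb1 (chr19:56721867-56722116, plus strand) and the outer of 2 Adra1b entries (chr11:43901238-43901487, minus strand).
Ednra: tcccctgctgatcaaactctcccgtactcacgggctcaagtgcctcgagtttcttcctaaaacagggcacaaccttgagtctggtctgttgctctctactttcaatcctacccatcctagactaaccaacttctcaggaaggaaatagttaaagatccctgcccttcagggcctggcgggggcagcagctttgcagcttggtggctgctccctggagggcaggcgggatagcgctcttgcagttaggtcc
Adrb1: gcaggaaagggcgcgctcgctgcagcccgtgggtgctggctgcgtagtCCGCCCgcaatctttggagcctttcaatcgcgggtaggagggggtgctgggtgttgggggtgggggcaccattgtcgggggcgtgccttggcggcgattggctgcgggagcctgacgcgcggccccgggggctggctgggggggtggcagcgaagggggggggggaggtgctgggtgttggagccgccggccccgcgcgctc
Adra1b: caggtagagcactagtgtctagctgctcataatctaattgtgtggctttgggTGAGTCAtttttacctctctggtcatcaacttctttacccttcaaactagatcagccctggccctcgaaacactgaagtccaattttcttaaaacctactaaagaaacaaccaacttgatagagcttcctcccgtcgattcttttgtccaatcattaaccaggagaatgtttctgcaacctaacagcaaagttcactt
Both strands were searched. The AP-1 motif was spelled TGACTCA and is in 4.46% of the 32851 promoters of the table. The GC box was spelled GGGCGG and is in 32.7% of them. The TATA box, spelled TATAAA, is in 12.4%. The motif of GATA factors, spelled GATAA, is in 22.6%. The E box, spelled CACGTG, is in 6.02%. The cAMP response element, spelled TGACGTCA, is in 1.55%. The Ednra window held none of them. Adrb1 held a GC box on the opposite strand, beginning 202 bases before the start, and Adra1b an AP-1 motif on the opposite strand, beginning 198 bases before the start. The GC content was 54.8% for Ednra, 74.0% for Adrb1 and 41.6% for this Adra1b window. The inner Adra1b entry (chr11:43836490-43836739), not printed, had a GC content of 72.8% and, like Adrb1, a GC box on the opposite strand, beginning 185 bases before its start. These are letter matches and no evidence of binding.

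Other genes of the 2 systems were examined in 6 lists with 74 genes. None passed the adjusted test in edgeR. At an unadjusted P below 0.05, 2 of 74 (2.70%) passed, against 3.66% of all genes. Both had a positive fold change, and 1.09% of all genes passed in that direction. A negative fold change was found in 41 of 74, against 51.9% of all genes. Of the 5 other endothelin genes, Ece2, a second converting enzyme, had a median of 5.12 TPM in WT and 4.95 TPM in mutant mice (log2 fold change 0.07, SE 0.126, adjusted P = 1, edgeR). The endothelin-degrading peptidase gene Mme was at 0.67 and 0.50 TPM (log2 fold change -0.14, SE 0.224, adjusted P = 1, edgeR). Edn2 reached 0.04 TPM at most. Kel, whose product can process endothelin-3, reached 0.02 TPM in WT and 0.16 TPM in mutant mice, and its median was 0 TPM in both genotypes, so its unadjusted P of 0.0498 (edgeR) belongs to a gene near 0. The list's median log2 fold change was -0.06, where that of all genes tested was -0.01.

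Of the 6 other adrenergic receptors, 0 passed even at an unadjusted P below 0.05 (edgeR), 2 had a negative and 4 a positive fold change, and the median was 0.08. The third α1 receptor gene, Adra1d, was at 0.19 to 1.80 TPM in WT and 0.31 to 2.02 TPM in mutant mice (log2 fold change -0.39, SE 0.387, adjusted P = 1, edgeR). The α2 receptor genes Adra2b and Adra2c stayed at or below 0.29 and 0.21 TPM, and Adrb3 at or below 0.21 TPM.

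The shared Gq arm downstream of ETA and the α1 receptors had 19 measured genes, with 0 passing at an unadjusted P below 0.05 (edgeR) and a median log2 fold change of -0.02. Those with the smallest P included Plcb3 (-0.15, SE 0.0938), Plcb1 (0.21, SE 0.185) and Plcb2 (0.19, SE 0.188), which encode phospholipase C isoforms. In the Gs and cAMP arm downstream of Adrb1, 0 of 20 genes passed at an unadjusted P below 0.05 (edgeR) and the median was -0.06. Its 4 genes with the smallest P were Prkar2b (-0.32, SE 0.221), a regulatory subunit of protein kinase A, the adenylyl cyclases Adcy7 (-0.27, SE 0.201) and Adcy4 (-0.19, SE 0.148), and the kinase anchor Akap12 (-0.13, SE 0.131). By TPM, Adcy4 was 4.56 to 7.79 in WT and 3.59 to 7.08 in mutant mice (two-sided exact permutation test, P = 0.0220, and 0.0389 on TPM rescaled to equal totals), with 4 WT mice above all mutant mice. The log2 ratio of its means was -0.30, against the median of -0.14 over all genes.

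Among 13 genes of receptor desensitization and of the opposing G proteins, 0 passed the adjusted test (edgeR) and the median log2 fold change was 0.04. Rgs2, which encodes a regulator that shortens Gq signaling, was at 2.59 to 13.2 TPM in WT mice (median 4.04) and 3.18 to 10.9 TPM in mutant mice (median 6.15). The ranges overlapped, and the highest mouse was a WT mouse. Its log2 fold change was 0.65 (SE 0.247, unadjusted P = 0.0168, adjusted P = 1, edgeR), while the difference in mean TPM lay within the spread between mice (two-sided exact permutation test, P = 0.464). Rgs4 (0.15, SE 0.141), Gnai1 (-0.19, SE 0.200) and the receptor kinase gene Grk2 (0.06, SE 0.0911) had larger P. Rgs3, named after its values were seen, had a log2 fold change of 0.03 (SE 0.137, adjusted P = 1, edgeR), whereas its mean TPM was 14.8 ± 1.29 in WT and 13.5 ± 1.01 in mutant mice (SD, n = 9 each; two-sided exact permutation test, P = 0.0215, and 0.0752 on TPM rescaled to equal totals). The log2 ratio of these means, -0.14, lies at the median over all genes, so nothing is read from it for Rgs3. Of the 68 pathway genes above 0 TPM in every mouse, Adcy4 and Rgs3 were the 2 (2.94%) with an unadjusted exact P below 0.05, against 5.3% of all genes. On rescaled TPM 1 of 68 (1.47%) passed, against 2.95% of all genes (exact permutation test; 2.6% lower and 0.348% higher), and 82.1% of all genes still had the lower mean in WWP2Mut/Mut mice. Of 11 genes of catecholamine synthesis, transport and breakdown, 0 passed at an unadjusted P below 0.05 (edgeR), with a median of -0.0023. The noradrenaline-forming enzyme gene Dbh was at 1.56 TPM in WT and 1.45 TPM in mutant mice by median (log2 fold change 0.21, SE 0.296, adjusted P = 1, edgeR). The transporter genes Slc6a2 and Slc18a2 stayed at or below 0.03 and 0.13 TPM.

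**Figure D5:**
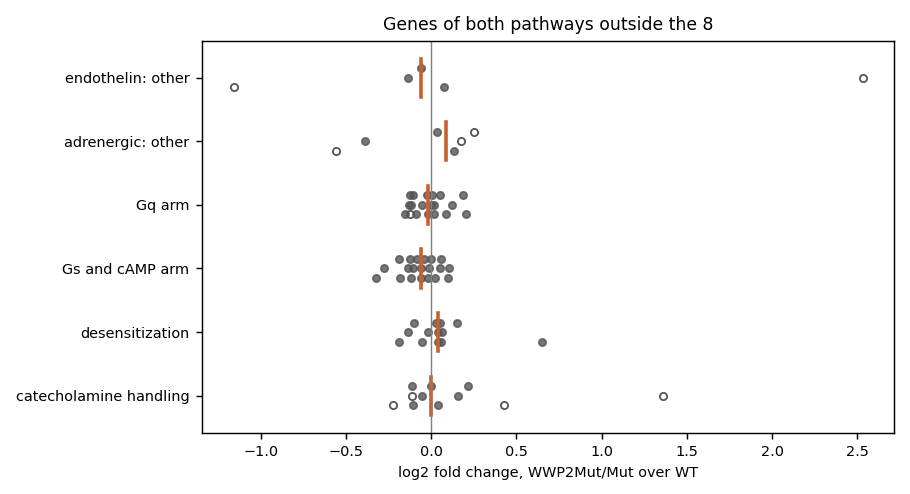
Log2 fold change in WWP2Mut/Mut over WT mice (horizontal axis, edgeR) of the 74 genes in 6 lists outside the 8, 1 point a gene, with the median of each list as an orange bar. Open points are 10 genes below 0.25 TPM in every mouse, which include the outlying points of the endothelin and catecholamine lists, and the medians lie between -0.06 and 0.08.

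The genes whose pattern over the 18 mice was most like that of each of the 8 were taken as the 2 with the highest Spearman rho of log2 CPM with the genotype mean removed, among 11336 genes. Adra1a was followed closely by Srp54b (rho = 0.98), Ednra by Cab39 (0.98) and Ppip5k1 (0.97), and Adrb1 by Wdr33 (0.97) and Plpbp (0.96). Adra1b was closest to Kdm8 (0.93) and Sh3rf2 (0.91), and Edn3 to Ddo (0.89) and Asph (0.89). Ednrb was closest to S1pr1 (0.84), which encodes an endothelial sphingosine-1-phosphate receptor, and to Klhl5 (0.83), and Ece1 to Papss2 (0.87) and to the endothelial gene Myct1 (0.86). Edn1 had the weakest such likeness, at 0.70 for Plpp6 and 0.69 for Ntf3. These rho values are the highest of many and carry no test.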

How the data were processed

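RNA-seq libraries of poly(A) RNA from the LV of 9 WT and 9 WWP2Mut/Mut mice were made with a strand-specific kit, and the strand setting of the counting is not given in the sources used here. The authors aligned reads to m38 (Ensembl 89) with STAR 2.5.2b, quantified genes with RSEM 1.2.31 and dropped rRNA and mitochondrial genes. They deposited expected counts (5.11% not whole) and TPM for each mouse. The deposited TPM summed to 671770 to 826381 per mouse, so it was also rescaled as an alternative. The deposited table of samples gives lane, RNA concentration, absorbance ratios, which were not used here, and a gene body coverage value taken as a fraction, of undefined meaning.

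Groups follow the genotype in the sample labels. Symbols were matched to 99.62% of the gene identifiers. Rounded expected counts with more than 1 count in total were tested with edgeR 4.0.16 (R 4.3.3; TMM, glmQLFit, glmQLFTest) adding lane and centred RNA concentration as covariates, and P was adjusted by Benjamini-Hochberg over 24804 genes, with a threshold of 0.05. DESeq2 1.42.0, limma 3.58.1 with pseudocounts of 1 and 0.1, other size factors, filters and covariates, and leaving out each mouse were the alternatives. The edgeR script was tested on simulated data.

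Mean TPM was compared over all 48620 divisions of the mice. Pairs of genes and coverage used 100000 shuffles within genotype in Python 3.11.15 (numpy 2.4.6, scipy 1.17.1, pandas 2.3.3). Fold changes from the counts are on the log2 CPM scale, and limma's on log2(TPM + pseudocount). Gene positions are from GENCODE's GRCm38 annotation, and exon numbers from the longest coding transcript. No mice were merged, because each is a separate animal. Within genotypes, the chi-square per gene against sampling noise was 15.0 to 272 in 72 pairs of mice. Separate animals exceed sampling noise in any case, so this value decides nothing.

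The 8 genes and the lists were chosen with earlier results of these data known. Named genes are the 8, Wwp2, up to 4 of each pathway list with the smallest unadjusted P, and 2 genes most like each of the 8. Npr3, Myl7 and Th, from marker lists, and Rgs3 fall outside this rule and were named after their values were seen. Some genes that this rule names are not reported here.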

Additional observations from a re-analysis of the deposited data

Results flagged for a closer look

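Among the 16 combinations of gene and genotype, 2 held a mouse at the edge whose distance to the next mouse took up more of the group's range than Dixon's 95% limit for 9 samples allows. Chance gives about 1 such case in 20 combinations. Edn1 was at 0.50 TPM in WWP2Mut/Mut mouse 53-1, where the next mutant mouse was at 0.86 TPM (gap over range 0.507). Without this mouse the Edn1 difference in mean TPM went from -0.217 to -0.157 (two-sided exact permutation test, P = 0.147).

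Edn3 was at 4.29 TPM in WWP2Mut/Mut mouse 62-1, where the next mutant mouse was at 1.77 TPM (gap over range 0.653). Without this mouse the Edn3 difference in mean TPM was -0.513 in place of -0.154 (two-sided exact permutation test, P = 0.0824). The log2 fold change, which the covariates also enter, was -0.44 without it in place of -0.55 (adjusted P = 1, edgeR).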

How the results depend on the processing

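No adjusted edgeR, DESeq2 or limma test of the 8 genes passed under any alternative. Edn1, Edn3 and Ednrb kept a negative fold change in all of them. Leaving out 1 mouse in turn gave -0.39 to -0.10 for Edn1, -0.78 to -0.38 for Edn3, -0.12 to 0.075 for Ednra, -0.45 to -0.29 for Ednrb, -0.012 to 0.19 for Ece1, -0.19 to 0.11 for Adrb1, -0.25 to 0.19 for Adra1a, -0.20 to 0.10 for Adra1b and -1.61 to -1.33 for Wwp2. Signs turned elsewhere, and the cause was not tested. Ednra was at 0.011 with upper-quartile factors, 0.11 without covariates, 0.11 with lane alone, 0.12 with coverage added and 0.13 with coverage alone. Adrb1 was at 0.029, 0.055, 0.15 and 0.10 under the last 4 of these, and Adra1a at 0.093, 0.14, 0.20 and 0.18. Adra1b was at 0.093 with coverage added and 0.16 without the 5 mice with atrial transcripts. Ece1 was at -0.14 in limma on log2(TPM + 1), with or without a minimum mean of 1 TPM, and on log2(TPM + 0.1). The median of all genes in these limma fits was -0.038, -0.14 with the minimum and -0.11, so with the minimum Ece1 lay at that median.

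The number of genes called was 1 throughout, except 0 without those 5 mice, when fewer mice entered, where Wwp2 was at -1.26 (adjusted P = 0.204, edgeR) and 510 genes had an unadjusted P below 0.05. It was 1 to 2 with 1 mouse left out, and 2 without mutant mouse 1-2 or WT mouse 84-2. These fits without the 5 mice, with coverage alone and with the liver sum, and the rescaled TPM of the pathway genes, were chosen after seeing the data.

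The difference in mean TPM, mutant minus WT, ranged with 1 mouse left out from -0.258 to -0.157 for Edn1, -0.513 to -0.0306 for Edn3, -0.587 to 0.2504 for Ednra, -0.977 to -0.562 for Ednrb, -1.56 to 0.832 for Ece1, -0.478 to -0.0215 for Adrb1, -0.341 to 0.186 for Adra1a and -2.76 to -1.07 for Adra1b. The exact P of Ednrb ran from 0.0205 (without WT mouse 94-2) to 0.126 (without WT mouse 25-3), and was below 0.05 also without mutant mice 22-3 and 54-1 and WT mouse 16-1. It was 0.123 on TPM rescaled to equal totals and 0.129 on TMM-normalized CPM. After rescaling TPM to equal totals, Ednra was at 0.128 and Adra1a at 0.0551. On TMM-normalized CPM the differences were 1.93 for Ednra, 6.98 for Ece1, 0.185 for Adrb1 and 0.686 for Adra1a. Pairs that passed numbered 5 to 9 of 28 with 1 mouse left out, 14 on log2(TPM + 1), 0 with coverage removed and 14 without the 5 mice. No paired analysis was possible because no mouse label occurs in both genotypes, and nothing in the sources used here ties the last digit, which does recur, to a litter or batch. Depth limits Edn1 (52 to 128 counts per mouse) more than the other genes but Edn3 (49 to 475).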
